A study of Mus musculus with 12 samples.

Results

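The cell cycle and DNA replication genes of entorhinal cortex (EC) neurons in primary culture were examined after silencing and overexpression of Dek, which encodes a chromatin-binding protein. The set holds 35 named genes of the 24100 in the expression table, and all 35 were found by symbol and passed the filter on low counts in every comparison. They were read in 6 roles. Mitosis was represented by 8 genes, DNA replication by 7, the cyclins and kinases of the G1 to S transition by 8, the inhibitors of those kinases by 3, the retinoblastoma family by 3 and the E2F transcription factors by 6. They were also read in 2 classes, 20 transcripts counted as typical of dividing cells and 15 regulators counted as kept in neurons. The classes were set from general knowledge and not from levels in these cultures. The 35 genes lie on 16 chromosomes, with at most 4 on any of them.

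In a dividing cell, D-type cyclins bind Cdk4 and Cdk6 and phosphorylate the retinoblastoma proteins, which then release E2F factors. E2F factors, with cyclin E and Cdk2, switch on the genes for DNA synthesis, among them the MCM helicase subunits, and the transcripts for mitosis follow in G2. Neurons leave this cycle when they are born, yet they go on expressing many of its regulators. Transcripts of S phase and mitosis in a neuronal culture are therefore often taken as a sign of the dividing progenitors and glia that share the dish.

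The cultures were prepared from mouse embryos at embryonic day 17 and were transduced on day 7 in vitro with an AAV1 virus at 1e+10 genomes per ml. RNA was taken 4 days later. The 4 groups of 3 wells received AAV1-mCherry-U6-mDEK-shRNA (silencing), AAV1-mCherry-U6-scrmb-shRNA (scrambled), AAV1-hSyn1-mDEK-IRES-mCherry (overexpression) or AAV1-hSyn1-mCherry-WPRE (empty vector). All wells thus carried a virus with mCherry. The U6 promoter that drives the hairpins works in all cell types, whereas hSyn1 is a promoter chosen for neurons, so the hairpin and the cDNA need not have reached the same cells. The labels and the methods name no drug against dividing cells. The labels do not say whether the wells of a group came from separate dissections, and p-values may therefore measure only the spread between these wells.

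The libraries held between 15679567 and 18933382 estimated counts. Levels are given as CPM, read counts relative to library size, scaled as edgeR does by the TMM method over the 12 libraries. Dek stood between 6.65 and 8.62 CPM in silencing and between 35.2 and 36.6 in scrambled, and between 128.8 and 155.9 in overexpression and 36.0 and 41.1 in the empty vector, so that Dek matched the label of every library. The 9 pan-neuronal markers summed to between 5697 and 7232 CPM in every library. Progenitor and glial markers were present too, with 10 radial glia and progenitor markers summing to between 490.1 and 1437 CPM and 9 astrocyte markers to between 435.0 and 853.7. The microglia markers P2ry12 and Tmem119 and the endothelial marker Cldn5 were at or near 0 in every library. The whole list of 6 microglia markers summed to between 2.83 and 12.4 CPM, and that of 6 endothelial and mural markers to between 4.03 and 10.5. Both lists are given by group with the marker results. Replicate 1 stood apart from replicates 2 and 3 in both hairpin groups. It held the lowest sums of oligodendrocyte precursor (OPC), radial glia and astrocyte markers and of the 8 mitosis genes in its group, so the results on mitosis are given below with and without it.

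Between silencing and scrambled, 19 of the 35 genes were higher in silencing and 3 were lower, at an adjusted p below 0.05 in the quasi-likelihood test of edgeR over all genes tested. A call in this comparison was common, since 54.7% of 14232 genes were called, 26.2% higher and 28.5% lower. The median log2 fold change (log2FC) was 0.63 over the 35 genes and −0.0011 over all genes tested. The 2 classes differed in their counts here, and their medians lay closer together against the empty vector, as given below. Of the 20 dividing-cell transcripts 13 were higher and 0 lower, with a median log2FC of 0.88, and of the 15 regulators kept in neurons 6 were higher and 3 lower, with a median of 0.13. The counts were 6 higher of 7 in replication, 5 of 6 among the E2F genes, 5 higher and 2 lower of 8 among the G1 cyclins and kinases, and 3 higher of 8 in mitosis. Scaling by library size alone gave 22 members higher and 2 lower and moved the share of higher genes among all calls from 47.9% to 59.9%. An offset for GC content and transcript length gave 14 higher and 3 lower and a share of 36.8%, and with it Mcm4, Mcm7, Ccne1, Cdk2 and E2f1 were no longer called (edgeR adjusted p between 0.051 and 0.38). No called member changed direction under either.

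**Figure D1:**
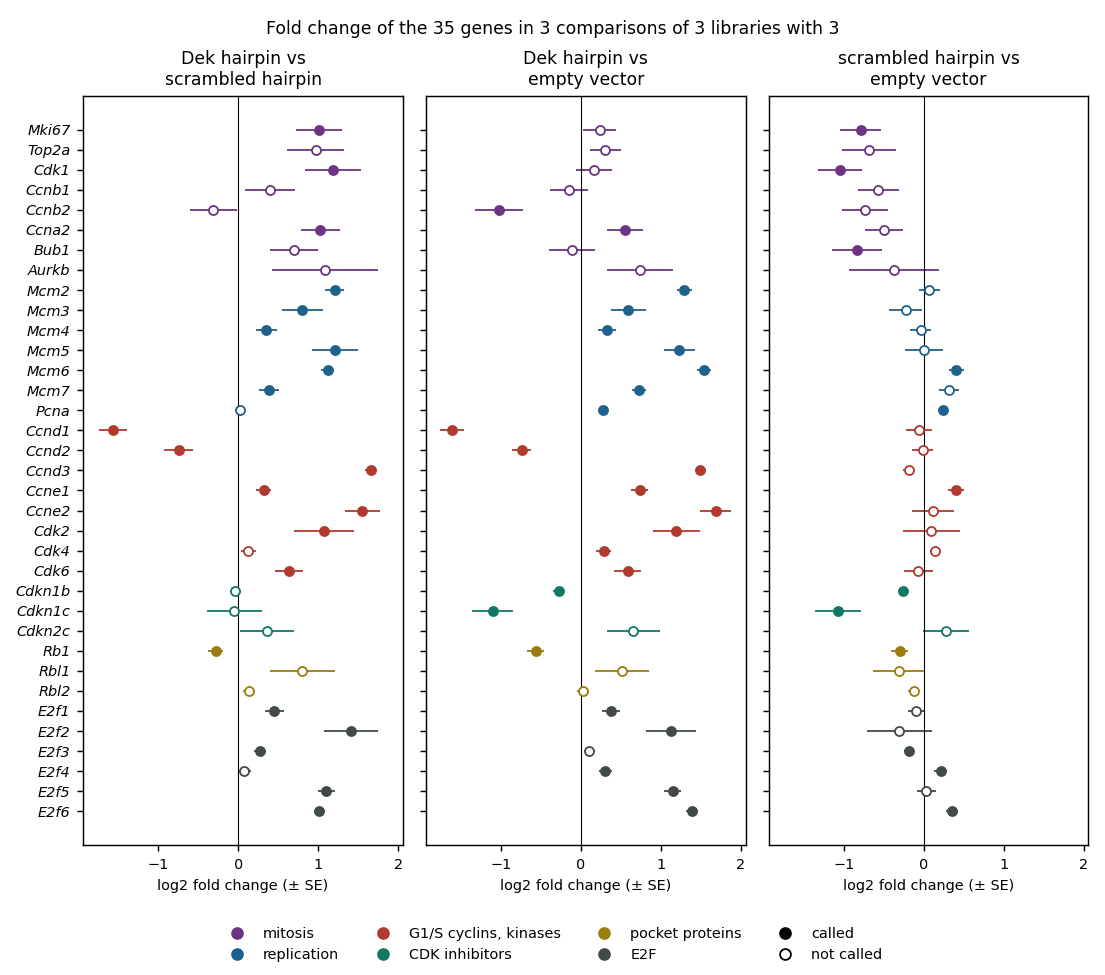
The log2FC of each of the 35 genes, with its SE, in 3 comparisons of 3 libraries with 3. Filled points passed an adjusted p of 0.05 and colours mark the 6 roles. The replication genes lie to the right of 0 against both controls, whereas Mki67, Top2a and Cdk1 lie near 1 against scrambled and between 0.16 and 0.30 against the empty vector.

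The helicase that unwinds DNA at replication origins is a ring of 6 subunits, Mcm2 to Mcm7, and all 6 of their transcripts were higher in silenced than in scrambled cultures. Mcm6 reached 39.2, 40.2 and 37.2 CPM in the silenced wells and 16.8, 18.1 and 18.2 in the scrambled wells. It stood at 11.9, 13.4 and 13.7 CPM in overexpression and at 13.6, 14.3 and 12.2 in the empty vector. The silenced wells lay above all 9 others, with a log2FC of 1.12 ± 0.08 (SE, edgeR adjusted p = 2.8e-07). Mcm2 stood at 21.4, 19.5 and 19.7 CPM in silencing against 8.23, 7.68 and 10.1 in scrambled, 8.36, 8.41 and 7.06 in overexpression and 8.66, 8.0 and 8.08 in the empty vector. Its log2FC against scrambled was 1.21 ± 0.12 (edgeR adjusted p = 4.0e-06). Mcm5 stood at 9.96, 15.7 and 16.7 CPM in silencing and at 3.75, 7.45 and 7.11 in scrambled, with a log2FC of 1.21 ± 0.29 (edgeR adjusted p = 0.0088). Replicate 1 was the lowest well of both groups for Mcm5, unlike Mcm2 and Mcm6, which were even across wells.

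Mcm3, Mcm7 and Mcm4 moved less, with log2FC of 0.80 ± 0.26, 0.39 ± 0.12 and 0.35 ± 0.13. These 3 calls were lost when single libraries were left out. Without silencing replicate 2, silencing replicate 3 or scrambled replicate 1 all 3 were lost, and without scrambled replicate 2 Mcm3 and Mcm4 were lost, with edgeR adjusted p between 0.053 and 0.15. Pcna, the clamp that holds DNA polymerase on its template, did not follow the helicase. Its level was 70.3, 63.9 and 67.3 CPM in silencing and 59.8, 67.6 and 68.9 in scrambled, and the 95% interval of its log2FC ran from −0.11 to 0.16.

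The promoters of Mcm6 and Mcm5, which rose, and of the mitosis genes Cdk1, which rose, and Top2a, which was not called, are shown here for the regulatory letters they hold. They run from 250 bases before to 50 bases after the start of transcription in the RefSeq annotation of GRCm38.p6. Capitals mark 3 kinds of motif, sought on both strands. E2F sites were TTTCCCGC, TTTGGCGC, TTTCGCGC or TTTGCCGC, CHR elements (known from genes of G2 and mitosis) were TTTGAA or TTCGAA, and boxes of the factor NF-Y were CCAAT. Overlapping matches form longer runs of capitals. Mcm6 lies on the minus strand at chr1:128359656-128359955, Mcm5 on the plus strand at chr8:75109259-75109558, Cdk1 on the minus strand at chr10:69352863-69353162 and Top2a on the minus strand at chr11:99024140-99024439.
Mcm6: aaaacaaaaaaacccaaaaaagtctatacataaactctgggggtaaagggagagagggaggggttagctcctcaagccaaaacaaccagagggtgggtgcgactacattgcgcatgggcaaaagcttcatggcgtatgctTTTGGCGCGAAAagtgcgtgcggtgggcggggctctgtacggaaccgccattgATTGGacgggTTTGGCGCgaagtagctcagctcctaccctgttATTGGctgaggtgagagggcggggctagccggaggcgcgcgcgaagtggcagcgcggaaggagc
Mcm5: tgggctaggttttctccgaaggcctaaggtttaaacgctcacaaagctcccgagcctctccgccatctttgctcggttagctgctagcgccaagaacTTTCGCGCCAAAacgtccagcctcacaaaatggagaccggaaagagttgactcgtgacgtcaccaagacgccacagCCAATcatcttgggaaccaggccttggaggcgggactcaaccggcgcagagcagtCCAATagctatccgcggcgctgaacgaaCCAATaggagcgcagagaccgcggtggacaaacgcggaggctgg
Cdk1: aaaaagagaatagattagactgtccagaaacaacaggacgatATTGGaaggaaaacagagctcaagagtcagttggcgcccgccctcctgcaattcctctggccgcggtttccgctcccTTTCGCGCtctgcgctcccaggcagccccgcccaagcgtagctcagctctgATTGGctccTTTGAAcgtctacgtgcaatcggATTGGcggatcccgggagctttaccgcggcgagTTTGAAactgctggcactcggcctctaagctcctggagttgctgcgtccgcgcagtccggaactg
Top2a: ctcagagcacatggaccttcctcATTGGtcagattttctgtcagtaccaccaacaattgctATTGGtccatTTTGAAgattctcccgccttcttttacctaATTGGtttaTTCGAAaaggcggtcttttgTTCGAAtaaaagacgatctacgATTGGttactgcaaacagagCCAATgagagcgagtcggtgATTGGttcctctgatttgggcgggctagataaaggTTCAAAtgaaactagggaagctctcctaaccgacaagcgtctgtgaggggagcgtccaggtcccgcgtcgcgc
The Mcm6 and Mcm5 promoters carry E2F letters and NF-Y boxes, the Top2a promoter carries CHR and NF-Y letters, and Cdk1, the kinase of mitosis, carries all 3. The Mcm2 promoter, not shown, holds a CHR element and an NF-Y box and no E2F letters of those sought.

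A promoter window was matched for 25 of the 35 genes. Some windows lay inside the span of their gene and may not hold its main promoter. The Cdk6 window starts at base 3343643 and the gene at 3341004. The E2f1 window ends at 154569676 and the gene, on the minus strand, at 154569892. Of the E2f2 windows, the one that holds its CHR letters starts at 136180532 and the gene at 136172274. All windows were counted as they stand. E2F letters occurred in 4 of 6 replication promoters, in 9 of the 25 and in 2.6% of the 27025 genes with a promoter of this length. CHR letters occurred in 5 of 6 mitosis promoters and in 21.7% of all genes, and NF-Y boxes in 6 of 6 mitosis and 6 of 6 replication promoters and in 41.1% of all genes. Of the 9 genes with E2F letters, 8 were higher in silencing than in scrambled and 1 was not called. Of the 16 without, 7 were higher and 9 were not called. Over all genes tested 26.2% were higher, and the share among all genes with E2F letters was not counted. These letters lay mainly in replication promoters (4 of 6) and E2F promoters (2 of 4), so the split partly repeats the roles. Among genes with CHR letters 6 of 10 were higher, and among those without 9 of 15. These are counts of letters in a window, with no test, and they do not show that a factor was bound. No promoter was matched for Ccna2, Aurkb, Mcm4, Ccnd1, Ccnd2, Ccne2, Cdkn1c, Rb1, E2f4 and E2f5. The members that were lower, Ccnd1, Ccnd2 and Rb1, are therefore absent from these counts.

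**Figure D2:**
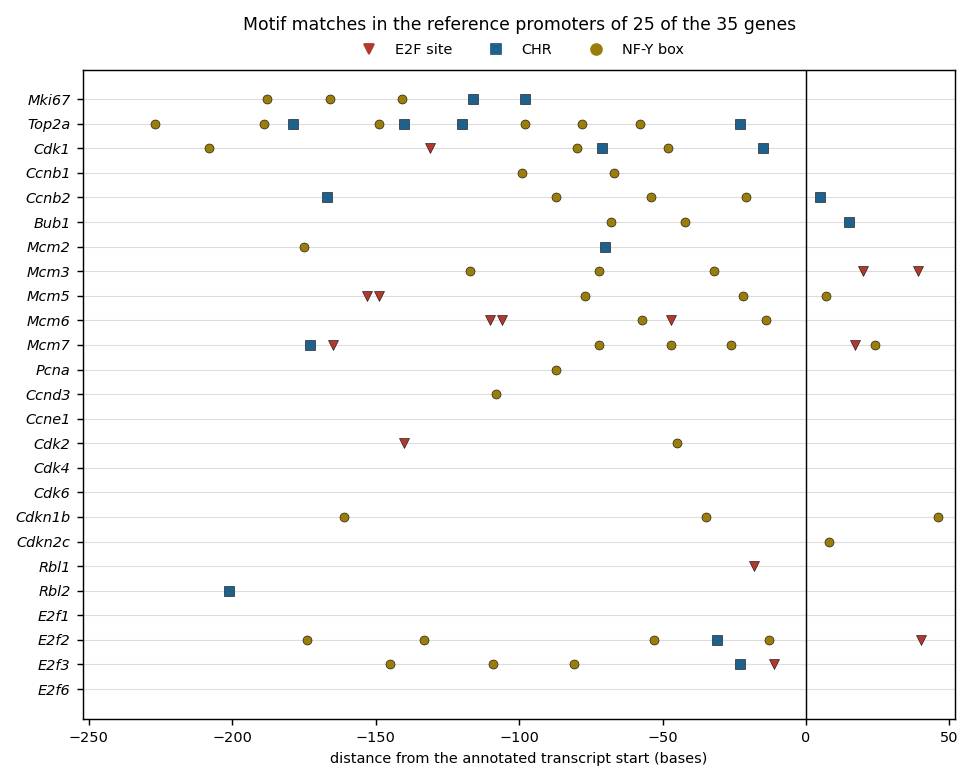
Distance in bases of each motif match from the start of transcription in the matched promoters of 25 of the 35 genes, with matches of every promoter drawn where a gene has more than 1. Windows that lay inside the span of their gene are included. Triangles are E2F sites, squares CHR elements and circles NF-Y boxes, and E2F letters are found in the promoters of Mcm3, Mcm5, Mcm6 and Mcm7.

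The D-type cyclins, the sensors of growth signals in G1, changed places with each other. Ccnd3 (chr17:47505051-47599689 in RefSeq, GRCm38.p6) stood at 66.8, 72.4 and 76.2 CPM in silencing, at 22.02, 21.7 and 23.8 in scrambled, at 22.3, 23.0 and 18.9 in overexpression and at 24.9, 25.5 and 26.2 in the empty vector. The silenced wells were 3.16-fold above scrambled, with a log2FC of 1.66 ± 0.08 (edgeR adjusted p = 1.4e-08). Ccnd1 (chr7:144929931-144939831) fell, from 68.8, 90.7 and 97.4 CPM in scrambled to 23.1, 31.4 and 32.4 in silencing, with a log2FC of −1.57 ± 0.18 (edgeR adjusted p = 2.9e-04). It stood between 76.6 and 102.2 CPM in the overexpression and empty vector wells. Ccnd2 (chr6:127125162-127152188) fell too, with 132.0, 187.0 and 176.4 CPM in silencing and 224.7, 285.9 and 312.8 in scrambled. Its log2FC was −0.75 ± 0.18 (edgeR adjusted p = 0.018), and without scrambled replicate 2 the adjusted p was 0.052.

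Levels of different genes can be compared only per length of transcript, so the D-type cyclins were set side by side as CPM per kilobase. In the silenced wells Ccnd3 made up 53.9%, 47.4% and 49.7% of the summed level of the D-type cyclins. In the 9 other wells it made up between 10.3% and 16.7%. Ccnd1 supplied between 10.5% and 11.95% in silencing and between 27.6% and 32.4% elsewhere. The sum itself was 58.7, 72.2 and 72.6 CPM per kilobase in silencing and 64.3, 79.7 and 86.7 in scrambled, so that the groups overlapped in their total and not in its makeup.

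Among the 35 genes Ccnd2 ranked first per kilobase in each of the 3 other groups and 4th in silencing, where Cdk4 ranked first. Ccnd1 moved from rank 4 in scrambled to rank 12 and Ccnd3 from rank 7 to rank 3. The lowest member in every group was E2f2, with 0.31 CPM per kilobase in silencing and 0.12 in scrambled. Ccnd2, Cdk4 and Pcna lay within their well to well ranges of each other in scrambled, at 43.4, 42.9 and 43.1 CPM per kilobase. The mitosis genes lay between 0.26 and 1.23 CPM per kilobase in scrambled. Levels did not follow the 2 classes throughout. Pcna, of the dividing-cell class, had rank 2 in scrambled, and Cdk2 and Cdkn1c, of the other class, had ranks 28 and 27.

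**Figure D3:**
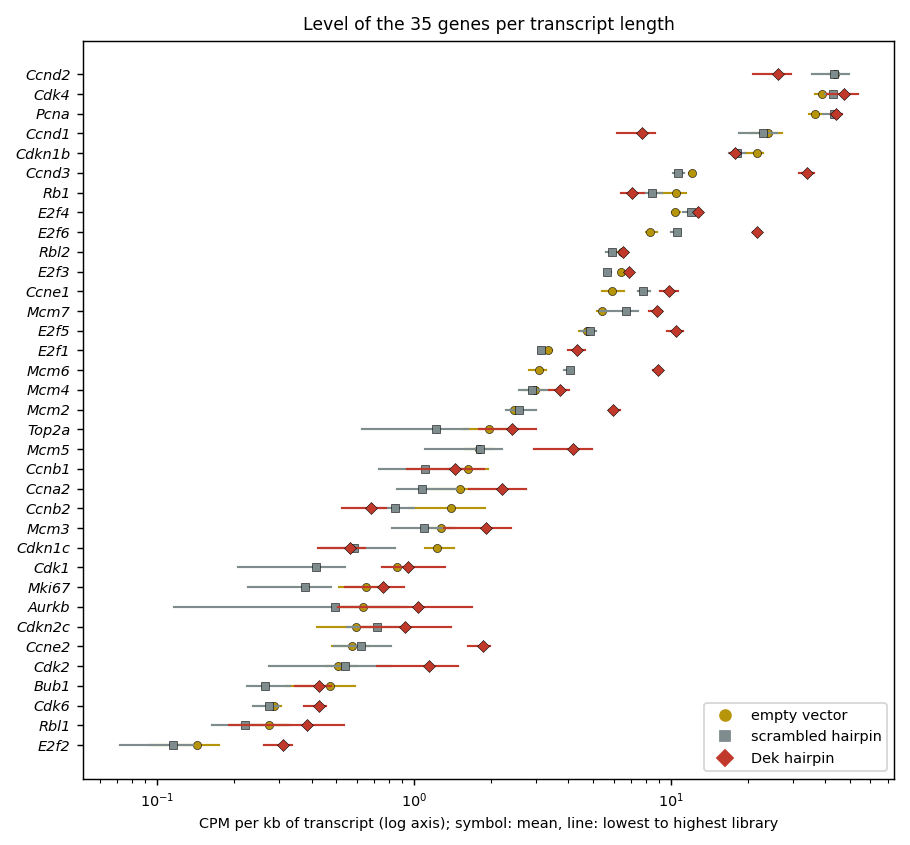
CPM per kilobase of transcript (log axis) of the 35 genes in the empty vector, scrambled and silencing groups, as the group mean with a line from the lowest to the highest of 3 libraries. Ccnd2, Cdk4 and Pcna lie at the top and E2f2 at the bottom, and the silencing symbol lies apart from both controls for Ccnd1, Ccnd3, E2f5, E2f6, Mcm2 and Mcm6.

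Of the kinases that the D-type cyclins bind, Cdk6 was called and Cdk4 was not. Cdk4 stood at 83.6, 97.4 and 109.7 CPM in silencing and at 82.2, 91.1 and 90.7 in scrambled, with a log2FC of 0.13 ± 0.10 and a 95% interval from −0.06 to 0.31. It was called without silencing replicate 1 (log2FC = 0.23, edgeR adjusted p = 0.019). Cdk6 was far less abundant, at 5.26, 5.23 and 4.31 CPM in silencing and 3.24, 3.46 and 2.72 in scrambled, and was higher in silencing (log2FC = 0.63 ± 0.18, edgeR adjusted p = 0.0097).

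Cyclin E, the partner of Cdk2 at the entry into S phase, is encoded by a pair of genes, and both were higher in silenced cultures. Ccne2 stood at 5.88, 5.94 and 4.89 CPM in silencing and at 1.48, 2.44 and 1.72 in scrambled, 2.18, 2.31 and 2.93 in overexpression and 1.44, 1.72 and 2.02 in the empty vector. No silenced well overlapped any other, and the log2FC against scrambled was 1.55 ± 0.21 (edgeR adjusted p = 7.1e-05). Ccne1, at 7.83 CPM per kilobase in scrambled against 0.62 for Ccne2, rose by less, from 15.4, 16.7 and 14.9 CPM to 18.1, 21.4 and 19.4, with a log2FC of 0.31 ± 0.10. Its call was lost without silencing replicate 2 (edgeR adjusted p = 0.088) or scrambled replicate 3 (0.075). Cdk2 was higher (log2FC = 1.08 ± 0.38, edgeR adjusted p = 0.032), but its wells overlapped, at 1.73, 3.00 and 3.56 CPM in silencing and 1.31, 0.66 and 1.95 in scrambled. Leaving out any of silencing replicates 2 and 3 or scrambled replicates 1 and 2 ended that call, with edgeR adjusted p between 0.074 and 0.13.

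**Figure D4:**
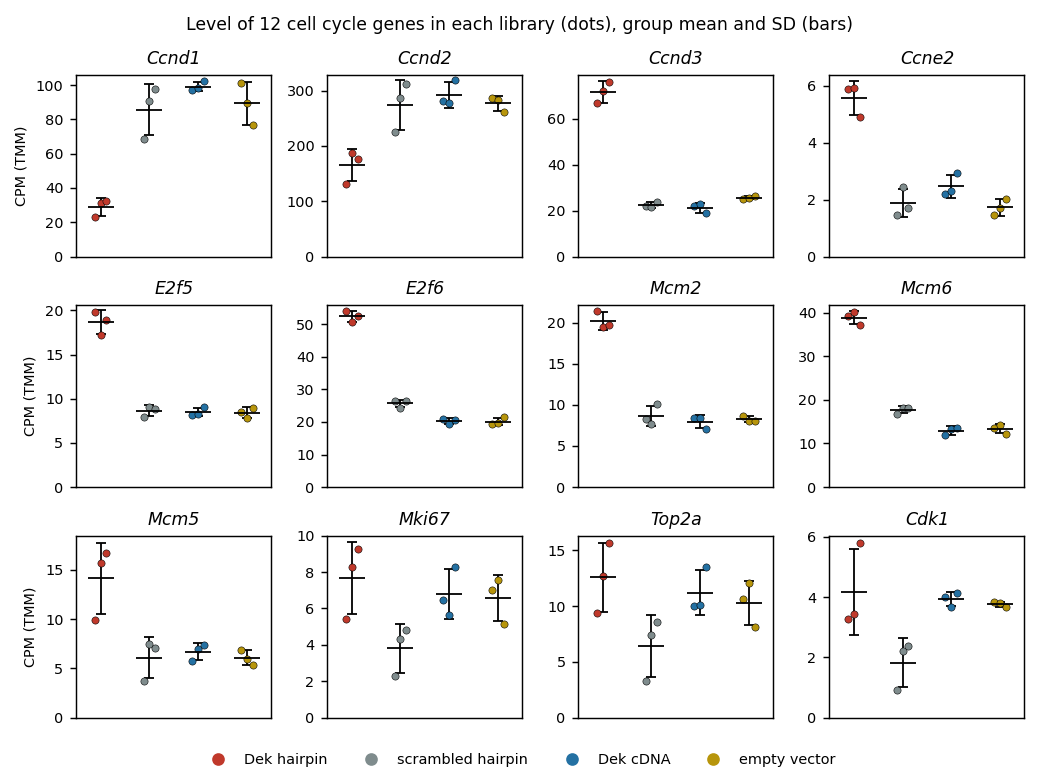
CPM of 12 of the genes in each of the 12 libraries (dots), with the mean and SD of each group of 3 as bars. Ccnd3, E2f5, E2f6, Mcm2 and Mcm6 lie higher in silencing than in the 3 other groups with little spread between wells, Ccnd1 and Ccnd2 lie lower, and Mki67, Top2a and Cdk1 overlap between silencing, overexpression and empty vector.

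Of the 6 E2F genes measured, 5 were higher in silencing than in scrambled. The clearest were E2f6 and E2f5, both known as repressors. E2f6 stood at 54.1, 50.7 and 52.4 CPM in silencing, 26.3, 24.4 and 26.4 in scrambled, 21.0, 19.3 and 20.6 in overexpression and 19.3, 19.6 and 21.4 in the empty vector. Its log2FC was 1.01 ± 0.07 (edgeR adjusted p = 2.6e-07), and scrambled itself lay above the empty vector. E2f5 stood at 19.9, 17.3 and 18.9 CPM in silencing and 7.95, 9.11 and 8.82 in scrambled, with a log2FC of 1.10 ± 0.11 (edgeR adjusted p = 4.4e-06). In both genes the silenced wells lay above all 9 others.

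The activating E2F genes differed in size of change. E2f2 was the rarest member, at 1.24, 1.58 and 1.60 CPM in silencing and 0.34, 0.66 and 0.65 in scrambled, a mean estimated count of 26.3 per library in silencing, and its log2FC was 1.41 ± 0.34 (edgeR adjusted p = 0.0040). E2f1 rose from 8.51, 8.64 and 8.70 CPM to 11.0, 12.8 and 11.9 (log2FC = 0.45 ± 0.11). E2f3 rose from 29.8, 28.3 and 28.3 CPM to 36.1, 33.7 and 35.2 (log2FC = 0.27 ± 0.07, edgeR adjusted p = 0.0079). E2f4, a repressor abundant in resting cells, had a log2FC of 0.08 with a 95% interval from −0.09 to 0.24.

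The retinoblastoma proteins hold E2F factors in check. Rb1 stood at 36.7, 32.3 and 29.7 CPM in silencing and 43.3, 38.8 and 36.7 in scrambled, lower by a small margin (log2FC = −0.28 ± 0.09, edgeR adjusted p = 0.020). That call was lost without silencing replicate 2, silencing replicate 3 or scrambled replicate 1, with edgeR adjusted p between 0.061 and 0.079, and with scaling by library size alone (0.11). Rbl2 was not called, at 0.13 ± 0.07, with a 95% interval from −0.01 to 0.28. Rbl1, the family member of dividing cells, was rare, at 0.93, 2.07 and 2.61 CPM in silencing and 0.79, 0.83 and 1.60 in scrambled, and its log2FC of 0.80 ± 0.41 was not called. It was called without silencing replicate 1 (log2FC = 1.11, edgeR adjusted p = 0.015).

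None of the 3 kinase inhibitors among the members was called between silencing and scrambled (0 at an unadjusted p under 0.05 in edgeR, and 0 called by DESeq2 or limma-voom). The inhibitors Cdkn1a and Cdkn2d, which are not members, did change and are given with the wider lists. Cdkn1b, which encodes p27 and was the most abundant of these 3, stood at 85.0, 80.8 and 77.6 CPM in silencing and 88.4, 81.5 and 77.1 in scrambled. The 95% interval of its log2FC ran from −0.16 to 0.09. Cdkn1c and Cdkn2c were rare, between 0.80 and 3.46 CPM in these 6 wells, and their intervals were wide, from −0.73 to 0.63 and from −0.29 to 1.02.

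The 8 mitosis genes were rare in every group, and their sum varied between wells. It was 28.3, 39.4 and 49.5 CPM in silencing, 12.9, 22.4 and 28.0 in scrambled, 31.9, 32.9 and 39.8 in overexpression and 37.5, 37.3 and 27.7 in the empty vector. Scrambled replicates 1 and 2 were the lowest of the 12 wells, scrambled replicate 3 lay next to the lowest silencing and empty vector wells, and silenced wells overlapped both the overexpression and the empty vector wells. In bulk RNA, fewer dividing cells and less of these transcripts per dividing cell cannot be told apart.

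Mki67, the proliferation marker Ki-67, was called against scrambled (log2FC = 1.00 ± 0.29, edgeR adjusted p = 0.015), at 5.44, 8.28 and 9.25 CPM in silencing and 2.27, 4.35 and 4.80 in scrambled. It stood at 6.49, 5.63 and 8.27 CPM in overexpression and 7.00, 7.59 and 5.13 in the empty vector, and both groups overlapped silencing. Cdk1 followed the same order, at 3.28, 3.43 and 5.80 CPM in silencing, 0.91, 2.20 and 2.37 in scrambled, 3.99, 3.67 and 4.14 in overexpression and 3.83, 3.79 and 3.66 in the empty vector (log2FC against scrambled = 1.19 ± 0.35, edgeR adjusted p = 0.017). Ccna2, the cyclin of S phase and G2, was called against both controls. It stood at 4.89, 6.54 and 8.14 CPM in silencing, 2.55, 2.68 and 4.32 in scrambled and 4.89, 5.33 and 3.27 in the empty vector, with log2FC of 1.03 ± 0.25 and 0.55 ± 0.22. Top2a, which untangles sister chromatids, had a log2FC of 0.97 ± 0.36 against scrambled and missed the threshold (edgeR adjusted p = 0.058), though it was called in 9 of 17 alternatives.

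Bub1 and Aurkb, which act at kinetochores, had log2FC of 0.70 ± 0.30 and 1.08 ± 0.66 and were not called. The mitotic cyclins Ccnb1 and Ccnb2 had 0.40 ± 0.31 and −0.31 ± 0.30, also not called. Several of these calls rested on single wells. Mki67 was lost without silencing replicate 2 or replicate 3 (edgeR adjusted p = 0.053 and 0.059) and Cdk1 without silencing replicate 3 (0.063). Top2a was gained without silencing replicate 1, scrambled replicate 1 or scrambled replicate 3 (0.043, 0.023 and 0.036), Bub1 without silencing replicate 1 (0.049) and Aurkb without scrambled replicate 3 (0.042).

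With replicate 1 left out of both hairpin groups, a choice made after the data had been seen, 22 members were higher and 3 lower, including all 22 of the calls above. Mki67, Top2a, Cdk1 and Ccna2 then had log2FC of 0.93, 0.82, 1.00 and 1.06, with edgeR adjusted p between 3.1e-04 and 0.0072. The wells were left out for their low mitosis transcripts, which narrows the spread of these same genes. The calls with only replicates 2 and 3 are therefore no further support for those above.

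**Figure D5:**
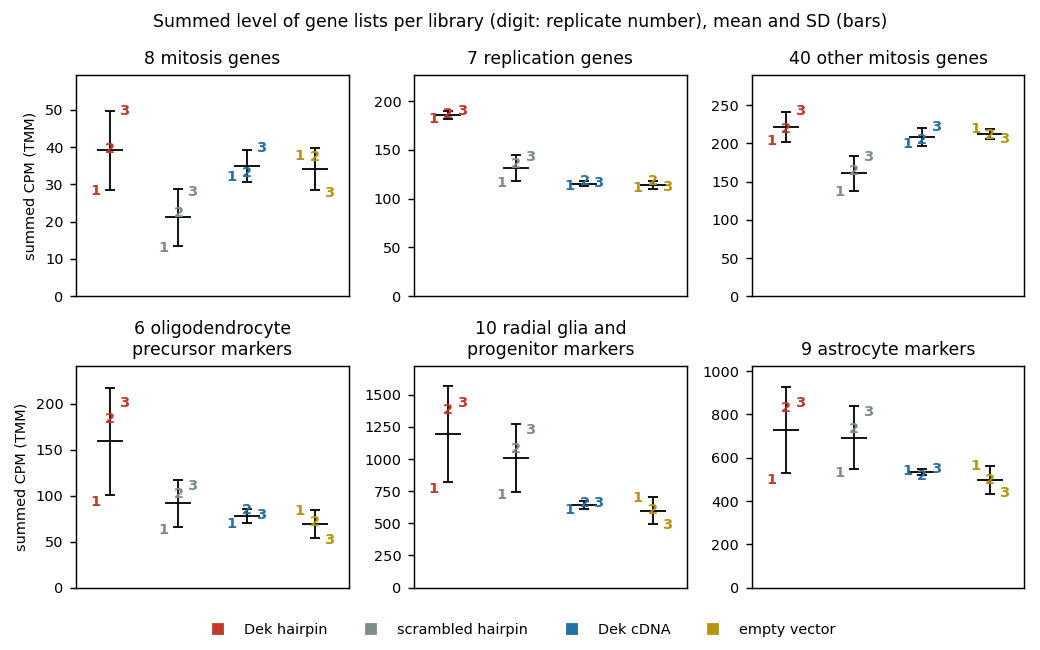
Summed CPM of 3 lists of cell cycle genes (top) and of 3 lists of cell type markers (bottom) in each library, shown as the replicate number, with the group mean and SD as bars. Replicate 1 is the lowest of its group in both hairpin groups in all 6 panels, and the 7 replication genes sum to between 181.3 and 189.3 CPM in silencing, above the 143 CPM of the highest well elsewhere.

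Markers of other cell types were read in the same wells. The 6 OPC markers summed to 92.9, 183.1 and 200.8 CPM in silencing, 62.3, 101.4 and 110.6 in scrambled, between 68.9 and 83.8 in overexpression and between 52.2 and 82.9 in the empty vector. Of the 5 OPC markers tested, 3 were higher in silencing than in scrambled. Over all genes tested in this comparison 26.2% were higher and 28.5% lower, and these shares stand beside every count of markers here. The 5 oligodendrocyte markers summed to between 82.4 and 89.8 CPM in silencing and between 30.8 and 41.2 in scrambled, with 4 higher and 1 lower. Radial glia and progenitor markers summed to between 768.0 and 1437 CPM in silencing and between 717.9 and 1225 in scrambled, with 1 of 9 tested called, higher in silencing. Astrocyte markers summed to between 499.4 and 853.7 CPM in silencing and between 530.1 and 812.0 in scrambled. Of these, 0 of 9 were called in edgeR, 0 of them at an unadjusted p under 0.05. The 6 endothelial and mural markers summed to between 9.59 and 10.5 CPM in silencing and between 4.03 and 5.24 in scrambled, with 1 of 3 tested called higher, Rgs5. Their sum was between 7.29 and 7.64 CPM in overexpression and between 6.83 and 8.59 in the empty vector. The 6 microglia markers summed to between 2.83 and 3.51 CPM in silencing and between 4.41 and 6.16 in scrambled, with 1 of 3 tested called lower, Aif1. Their sum was between 9.74 and 12.4 CPM in overexpression and between 9.28 and 9.83 in the empty vector, above every well of both hairpin groups. The 6 fibroblast and meningeal markers summed to between 10.9 and 14.2 CPM in silencing and between 10.2 and 12.6 in scrambled. Of these, 0 of 4 tested were called in edgeR, 0 of them at an unadjusted p under 0.05. The 9 pan-neuronal markers included 6 that were lower and 1 that was higher in silencing, and summed to between 5697 and 6249 CPM against between 6796 and 6985 in scrambled. The part of these cells in the changes of the 35 genes was not tested. In the same wells the 7 replication genes summed to 181.3, 186.3 and 189.3 CPM in silencing and to 116.6, 135.1 and 143 in scrambled.

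The same silenced wells were also set against the empty vector, where 67.4% of 14292 genes were called, 34.0% higher and 33.5% lower. Since both comparisons use the same silenced wells, their values are given side by side and are not independent. Against the empty vector 19 of the 35 genes were higher and 6 lower, with a median log2FC of 0.38 and of 0.02 over all genes. Of the 20 dividing-cell transcripts 12 were higher and 1 lower, with a median of 0.53. Of the 15 regulators kept in neurons 7 were higher and 5 lower, with a median of 0.28. All 7 replication genes were higher, Mcm6 by 1.54 ± 0.09, Mcm2 by 1.29 ± 0.10, Mcm5 by 1.23 ± 0.19 and Pcna by 0.28 ± 0.06 on the log2 scale. Ccnd3 (1.49 ± 0.07), Ccne2 (1.68 ± 0.19), E2f6 (1.38 ± 0.07) and E2f5 (1.15 ± 0.10) were higher here as well, and Ccnd1 (−1.61 ± 0.14) and Ccnd2 (−0.74 ± 0.12) lower.

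Mitosis looked different against this control. Only Ccna2 was higher and only Ccnb2 lower among the 8 genes, the latter at −1.03 ± 0.30. Mki67, Top2a and Cdk1 had log2FC of 0.23 ± 0.20, 0.30 ± 0.20 and 0.16 ± 0.22, none of them called. Cdkn1b (−0.28 ± 0.07), Cdkn1c (−1.11 ± 0.26) and Rb1 (−0.57 ± 0.11) were lower.

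The controls themselves differed. Between scrambled and empty vector 43.1% of 14096 genes were called, 21.3% higher and 21.8% lower, and of the 35 members 5 were higher and 7 lower in scrambled. The lower ones included Cdk1 (−1.05 ± 0.27), Mki67 (−0.79 ± 0.25) and Bub1 (−0.83 ± 0.31) among the mitosis genes, of which all 8 had a log2FC below 0. Cdkn1c (−1.07 ± 0.28), Cdkn1b (−0.26 ± 0.07), Rb1 (−0.30 ± 0.10) and E2f3 (−0.18 ± 0.06) were lower as well. Mcm6 (0.41 ± 0.09), Ccne1 (0.40 ± 0.10), E2f6 (0.35 ± 0.08), Pcna (0.24 ± 0.07) and E2f4 (0.21 ± 0.08) were higher. These 2 groups differ in promoter and construct, and the labels do not say whether they were cultured side by side, so that virus and culture cannot be told apart. Leaving out single libraries moved the number of lower members between 2 (without empty vector replicate 2) and 7, with 4 without empty vector replicate 1, and left 3 higher without scrambled replicate 3. Rb1, E2f3, E2f4 and Bub1 were each lost without at least 4 of the 6 libraries (edgeR adjusted p between 0.064 and 0.19). Mki67 was lost without empty vector replicate 1 or 2 (0.088 and 0.11), Cdkn1b without empty vector replicate 2 (0.051) and Pcna without scrambled replicate 3 (0.051). Ccnb1 was gained without scrambled replicate 3 and Ccnb2 without empty vector replicate 3, both lower in scrambled (0.013 and 0.021), and Ccna2 without either of these (0.024 and 0.036). Mcm7 was gained without scrambled replicate 1 (4.0e-04), Cdk4 without that well or empty vector replicate 1 (0.012 and 0.032) and Ccnd3 without scrambled replicate 3 (0.048).

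None of the 35 genes was called in overexpression against the empty vector. In this comparison 0.00710% of 14089 genes were called, a single gene, Dek itself, and 930 had an unadjusted p under 0.05 in edgeR. DESeq2 called 4 genes and limma-voom 1, none of them a member. At an unadjusted p under 0.05 stood 3 of the 35, E2f1 (log2FC = 0.32 ± 0.10), Ccnd3 (−0.25 ± 0.09) and Ccne2 (0.52 ± 0.22), with edgeR adjusted p of 0.69, 0.69 and 0.71. The median log2FC over the 35 genes was 0.03, and the 95% intervals of all 35 lay between −0.89 and 0.95.

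Whether a gene responded differently to loss and gain of Dek was tested in a fit of all 12 libraries, as the response to silencing minus the response to overexpression. Of 14604 genes 43.0% were called, 20.4% higher and 22.7% lower, and of the 35 members 12 were higher and 2 lower. Ccnd3 (1.93 ± 0.11), Mcm2 (1.27 ± 0.17), Mcm6 (1.18 ± 0.12) and E2f5 (1.10 ± 0.15) had large positive differences, and Ccnd1 (−1.71 ± 0.21) and Ccnd2 (−0.81 ± 0.20) negative ones. Of all calls in this test 47.3% were higher, 57.9% with scaling by library size and 35.6% with the offset for GC content and length.

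Wider lists of the same pathways, 40 genes each, were examined between silencing and scrambled, where 26.2% of all genes tested were higher and 28.5% lower. Of 40 other replication genes 23 were higher and 4 lower, with a median log2FC of 0.49. Those with the smallest p were Fen1, a nuclease of the lagging strand (1.09 ± 0.09), Cdt1, which loads the MCM ring onto origins (1.77 ± 0.16), and Rrm1 and Rrm2, the subunits of ribonucleotide reductase (0.86 ± 0.08 and 1.64 ± 0.14). Cdt1 stood at 12.4, 15.7 and 16.8 CPM in silencing and 4.99, 3.81 and 4.20 in scrambled. The lower genes were Orc2 (−0.39), Chaf1a (−0.57), Dnmt1 (−0.38) and Rpa3 (−0.24). Of 39 other mitosis genes tested 12 were higher and 0 lower (median 0.50), led by Ccnf (0.80 ± 0.12), Cks2 (1.29 ± 0.20), Aurka (0.94 ± 0.16) and Smc4 (0.61 ± 0.11). Against the empty vector the replication list had 20 higher and 5 lower (median 0.38), and the mitosis list 9 higher and 4 lower of 40 (median 0.05). Over all genes tested against that control 34.0% were higher and 33.5% lower.

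Among 40 other regulators 9 were higher and 15 lower, with a median log2FC of −0.13, beside 26.2% higher and 28.5% lower over all genes tested. The list as a whole was thus not marked by higher genes, and those named here had the smallest p in each direction. Cdc25a, the phosphatase that activates Cdk2, stood at 43.1, 43.9 and 42.2 CPM in silencing and 13.7, 13.0 and 12.4 in scrambled (log2FC = 1.71 ± 0.08). Cdkn1a, which encodes the inhibitor p21, stood at 373.4, 383.1 and 333.1 CPM against 150.6, 131.9 and 131.5 (1.38 ± 0.07). An activator and an inhibitor of Cdk2 were both raised in every silenced well. Ccng1, a known target of p53 like Cdkn1a, and Skp2, which marks p27 for destruction, rose by 1.34 ± 0.07 and 1.35 ± 0.14. The lower genes with the smallest p were Cdkn2d, an inhibitor of Cdk4 and Cdk6 (−1.65 ± 0.08), Tfdp1, the dimer partner of E2F (−1.09 ± 0.08), Cdk14 (−1.05 ± 0.08) and Ccny (−0.38 ± 0.06). Cdkn2d stood at 24.1, 24.7 and 27.6 CPM in silencing and 76.8, 83.9 and 76.7 in scrambled, so that the groups were far apart while Cdkn1b was level.

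The silencing hairpin contains the letters AAGAGGA, and the 3′ UTRs of the members were searched for them. Their complement lies further inside the antisense arm of the hairpin, so they are not the match to the first bases of that arm. This heptamer had been picked with earlier results of these data in view, so the counts are a description. It occurs in 6 of the 35 genes (17.1%) and in 15.8% of 13400 genes tested that have a 3′ UTR in the GENCODE annotation. Over those 13400 genes the median log2FC in silencing was −0.20 with the heptamer and 0.03 without. The genes were not matched for the length of the 3′ UTR, and longer ones hold a heptamer more often. Whether the hairpin acts through these letters was not tested. Ccnd1, the member with the largest fall, has it at bases 44 and 107 of its 3′ UTR, and Rb1 at base 814, each shown with its neighbouring bases and the heptamer in capitals.
Ccnd1 site at 44: ggcacccgcaAAGAGGAaggagccagc
Ccnd1 site at 107: ttgttaccagAAGAGGAagttttgttc
Rb1 site at 814: aactgtgcttAAGAGGAccctagtaca
Mcm6 and Cdk6 also carry the letters and were higher in silencing, Rbl2 and Cdkn2c carry them and were not called, and Ccnd2, which fell, does not.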

How the data were processed

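RNA sequencing of 12 wells was analysed, 3 in each of 4 groups taken from the sample labels. The authors deposited estimated counts per gene, not normalized (38.1% of values were not whole), and their processing notes list DESeq2, Salmon and the mm10 build. The paper's methods name another aligner for the study's RNA sequencing, and whether strand was used is not given in the sources used here. Counts were rounded, genes were kept by filterByExpr, scaled by TMM and tested in edgeR 4.0.16 under R 4.3.3 (quasi-likelihood, robust), with Benjamini-Hochberg adjustment over all genes and a call at an adjusted p below 0.05. Intervals of 95% are the log2FC ± 1.96 SE, with the SE taken from the F statistic of that test. With so few wells they are narrower than the test itself allows. For Rbl1 in silencing against scrambled the interval ran from 0.004 to 1.60 at an unadjusted edgeR p of 0.075. The test was checked on simulated data. CPM per kilobase used the longest protein-coding transcript of GENCODE vM21 on GRCm38.

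Alternatives were DESeq2 1.42.0 size factors and Wald test, library size, limma-voom (limma 3.58.1), no filter, at least 5 CPM in 3 libraries, the replicate number as a block, a GC content and length offset, 1 fit of all libraries, the empty vector as control and each library left out in turn, for which edgeR pooled the spread over both groups. Figures used Python 3.11.15 and matplotlib 3.10.9. The 35 genes, the wider lists and the markers were chosen with earlier results of these data known. All 35 were named, and of each wider list up to 4 genes per direction with the smallest adjusted p. No other data of the study were used here.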

Additional observations from a re-analysis of the deposited data

Results flagged for a closer look

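The response to silencing differed from the response to overexpression for 14 of the 35 genes, by the test of the difference itself in a fit of all 12 libraries (edgeR, adjusted p below 0.05). Such a call was common, since 43.0% of 14604 genes received it, so the count is near the share over all genes. Overexpression against the empty vector called 1 gene, so the difference largely repeats the response to silencing. Values here are the log2FC in silencing minus the log2FC in overexpression, with its SE. The replication genes among them were Mcm2 (1.27 ± 0.17), Mcm6 (1.18 ± 0.12) and Mcm5 (1.08 ± 0.34). The G1 cyclins were Ccnd3 (1.93 ± 0.11), Ccne2 (1.05 ± 0.31), Ccnd1 (−1.71 ± 0.21) and Ccnd2 (−0.81 ± 0.20). The E2F genes were E2f2 (1.43 ± 0.52), E2f5 (1.10 ± 0.15), E2f6 (1.01 ± 0.10) and E2f3 (0.38 ± 0.10). The mitosis genes were Cdk1 (1.14 ± 0.37), Mki67 (0.97 ± 0.36) and Ccna2 (0.96 ± 0.33).

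For Mcm2, Mcm6, Ccnd3, Ccne2, Ccnd1, Ccnd2, E2f3, E2f5 and E2f6 the call held in each of the 20 alternatives that tested it. Mki67, Ccna2 and E2f2 were each lost without at least 6 of the 12 libraries (edgeR adjusted p up to 0.11), Mcm5 without overexpression replicate 1 or empty vector replicate 1 (0.052 and 0.054) and Cdk1 without silencing replicate 3 (0.072). The scrambled wells that enter the difference were low in Cdk1, Mki67 and Bub1 against the empty vector, and the part of this in the differences of the mitosis genes was not tested. No group held 4 libraries, so single outlying wells were not sought by a formal rule.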

How the results depend on the processing

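Of the 22 members called between silencing and scrambled, 11 kept their call under every alternative that tested them and 11 lost it under at least 1, and no called member changed direction. Of the 13 not called, 11 were called under at least 1, Top2a under 9 of 17. Leaving out single libraries gave between 13 and 23 members higher and between 2 and 3 lower. With the empty vector as control 6 members were lower instead of 3. Of 12 members called between scrambled and empty vector 4 kept their call throughout. The offset for GC content and length left 2 higher and 4 lower there, and leaving out single libraries between 3 and 7 higher and between 2 and 7 lower. In overexpression the number of genes called was 4 with DESeq2, 7 with no filter on low counts and 4 with the offset, and between 1 and 7 without single libraries, with 0 members called each time. Replicate numbers were checked as a pairing. The deviations of same-numbered silencing and scrambled libraries correlated at 0.30, 0.13 and 0.07 and those of overexpression and empty vector at −0.02, −0.05 and −0.02. Replicate 1 of either hairpin group correlated between −0.23 and −0.12 with replicates 2 and 3 of the other. Replicates 2 and 3 correlated across numbers at 0.15 and 0.07. The replicate 1 wells of the hairpin groups thus deviated alike, whereas replicates 2 and 3 were not told apart by number. The main test did not pair the wells, and the replicate block is given beside it. With the replicate block 22 members were higher and 3 lower in silencing (8620 genes called), 4 higher and 3 lower between the controls (4897 genes), 0 in overexpression (1 gene) and 12 higher and 2 lower in the difference of the responses (6126 genes). The cause of these shifts was not tested. Depth limits the rarest members, since E2f2, Bub1, Rbl1, Aurkb, Cdk2, Cdkn1c and Ccnb2 had under 2 CPM in every scrambled well, and counting errors are then large.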
